A study of Sus scrofa with 8 samples.

Results

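Translation initiation and elongation factors were followed in backfat, the subcutaneous fat of the back, of 2 pig breeds. The factors were taken by name, as every gene on the array whose single annotated symbol begins with EIF or EEF and a digit. The rule itself uses no measured value, but it was chosen with earlier results of these data known. It gave 42 genes, 36 initiation factors (EIF) and 6 elongation factors or their partners (EEF), of 6765 genes with a single symbol. They were covered by 65 probe sets, of which 1 is a control probe set of the array, and all 42 genes passed the filter on low signal. RefSeq's annotation of the pig assembly Sscrofa11.1 holds 22 further symbols of this form, among them EEF2, EEF1A2, EIF2S3, EIF5 and EIF4EBP1, which are not analysed here.

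One breed is labelled KNP, a name the labels do not spell out, with 4 samples from pigs aged 7 months. The other is labelled YS, given as Yorkshire in 1 label, with 4 samples from pigs aged 6 months. All pigs were kept under the same conditions, no treatment was given, and each sample was hybridised to 1 Affymetrix GeneChip Porcine Genome Array. Breed and age cannot be told apart, and the labels give neither sex nor the number of animals sampled, so p-values measure only the spread between these samples, which may be technical.

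Translation begins when a small ribosomal subunit, carrying initiator tRNA bound to eIF2 and GTP, is brought to the cap of an mRNA by the eIF4 proteins and the eIF3 scaffold, and scans to a start codon. Elongation factors then deliver each aminoacyl-tRNA and move the ribosome along. Cells set the rate of initiation mainly through phosphorylation of eIF2 and through binding proteins that sequester the cap-binding protein eIF4E, and these are changes of protein state that an RNA measurement does not see. In fat tissue insulin acts on the second route through mTORC1.

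No translation factor was separated between the breeds. In limma, 0 of 42 passed an adjusted p of 0.05, as did 0.0% of all 6006 genes tested, and each factor had an adjusted p of 0.9998. At an unadjusted p under 0.05 there were also 0 of 42, where the share over all genes was 2.35%. For 0 of 42 did the 4 KNP arrays lie wholly above or wholly below the 4 YS arrays, a pattern seen in 2.08% of all genes, and 0 of 42 differed 2-fold between breed means, against 2.85% of all genes.

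The factors were split evenly, with 21 means higher and 21 lower in KNP. The median difference, KNP minus YS on the log2(signal + 16) scale used for all differences here, was 0.0030, against 0.01 over all 6006 genes. Differences ran from -0.69 for EIF2AK2 to 0.43 for EEF1E1, with a median size of 0.15 and a median SE of 0.28. The 95% interval of the difference, from limma and not adjusted for the number of genes, lay within 2-fold in both directions for 35 of 42 factors (83.3%) and for 52.5% of all genes. The exceptions were EIF1AX, EIF2AK2, EIF3D, EIF4A1, EIF4G1, EIF5B and EEF1E1. Both shares of intervals within 2-fold depend on the SE, whose median was 0.28 for the factors and 0.33 for all genes.

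**Figure D1:**
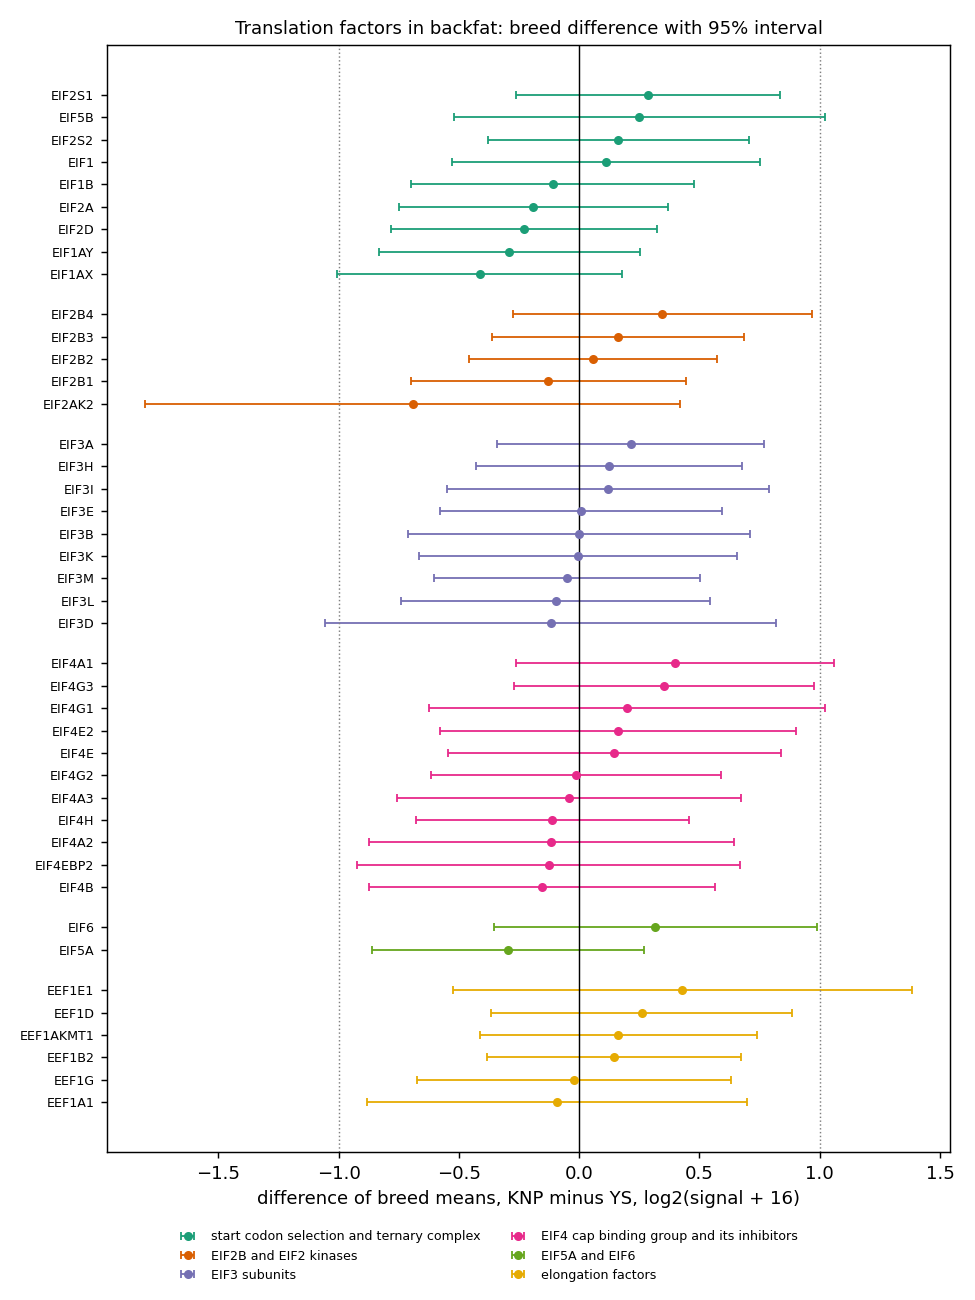
Difference between breed means for each of the 42 factors, KNP minus YS on the log2(signal + 16) scale, grouped by factor class. Points are differences, bars are 95% intervals from limma, and dotted lines mark 2-fold. All 42 intervals include 0, and the widest belongs to EIF2AK2.

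Signal along a transcript differed between arrays, and it can be read from a translation factor, since elongation factor 1 alpha is one of the array's control transcripts. This factor, encoded by EEF1A1, carries aminoacyl-tRNA to the ribosome and is among the most abundant proteins of a cell. Its 5' control probe set gave signals of 855.1, 4445, 55132 and 41462 on KNP replicates 1 to 4, against 42391, 27994, 36094 and 14907 on YS replicates 1 to 4. Its 3' control probe set gave 90631, 73987, 58190 and 47814 on the KNP arrays, against 57241, 49158, 59180 and 87648 on the YS arrays. KNP replicates 1 and 2 and YS replicate 4 stood apart, with ratios of 3' to 5' signal of 106, 16.6 and 5.88, while the ratio lay between 1.06 and 1.76 on the other 5 arrays. The breed difference for this transcript was -1.54 at the 5' end, -0.27 in the middle and 0.09 at the 3' end. These control probe sets were left out of the test and are described only.

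**Figure D2:**
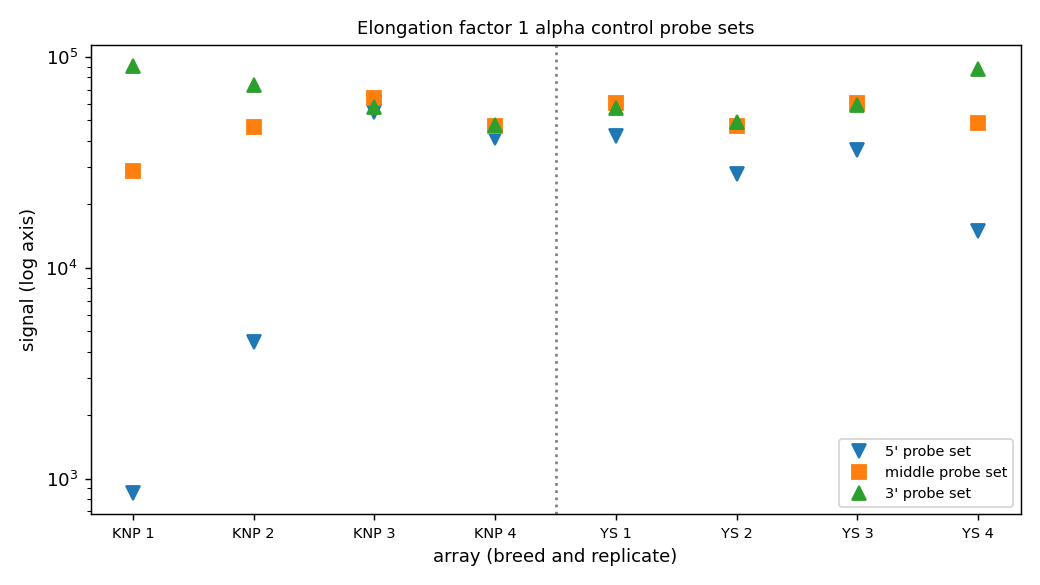
Signal of the 5', middle and 3' control probe sets of elongation factor 1 alpha on each array, on a log axis. The 3' and 5' signals lie close together on KNP 3, KNP 4, YS 1, YS 2 and YS 3, and far apart on KNP 1 (855.1 at the 5' end) and KNP 2 (4445).

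With the actin and GAPDH controls averaged in, the 3' minus 5' difference was 8.54, 5.88, 2.20 and 2.12 log2 units on the KNP arrays and 2.58, 3.17, 3.10 and 4.40 on the YS arrays. On KNP replicates 3 and 4 and YS replicates 1 to 3 the actin control alone still differed by 3.09 to 4.88 log2 units. GAPDH differed there by 2.93 to 4.13. Adiponectin, ADIPOQ, an adipocyte hormone, was low on the 3 arrays of largest mean difference, at 156.2 and 430.7 on KNP replicates 1 and 2 and 564.5 on YS replicate 4, against 2302 to 5458 on the others. The summed signal of the 14 measured adipocyte markers, of 18 listed, did not follow it on KNP replicates 1 and 2. That sum was 237428 and 216689 there and 146241 on YS replicate 4, against 143904 to 230921 on the others. KNP replicate 2 also had high signal for skeletal muscle genes: the summed signal of 12 measured muscle markers of 22 listed was 81916 there, 1642 to 2973 on the other KNP arrays and 1111 to 1946 on the YS arrays. All 12 lay above the no-target level, that of control probe sets meant to match nothing in the sample, on that array, against 3 to 7 on the other KNP arrays and 5 to 8 on the YS arrays. The tissue label was borne out by adipocyte markers, of which 13 or 14 of the 14 measured lay above that level on each array. The fatty acid binding protein FABP4 ran from 35557 to 56120 in signal on the KNP arrays and from 36984 to 44676 on the YS arrays. In bulk tissue, fewer cells of a type and less RNA per cell cannot be told apart. The part of these 3' to 5' differences and of muscle in the values below was not tested.

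The first class holds 9 factors of start codon selection and of the ternary complex, the assembly of eIF2, GTP and initiator tRNA. Of these 4 had a higher and 5 a lower mean in KNP, with a median difference of -0.11. EIF1AX, which encodes the scanning factor eIF1A, had the smallest unadjusted p of all 42 factors. Its signal was 1766, 1579, 2182 and 2018 on KNP replicates 1 to 4, against 3047, 2951, 2423 and 1787 on YS replicates 1 to 4. YS replicates 1, 2 and 3 lay above all KNP arrays, and YS replicate 4 lay among them. The log2 mean was 10.88 ± 0.20 in KNP against 11.30 ± 0.35 in YS (SD, n = 4), a difference of -0.41 ± 0.26 (SE), with an unadjusted p of 0.149 in limma. Leaving out 1 array at a time moved the difference between -0.57, without YS replicate 4, and -0.32.

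A second EIF1AX probe set had a difference of -0.17 ± 0.51 (SE). EIF1AY, which in human is the Y-linked copy of the same factor, gave 1186, 1099, 1037 and 1398 on the KNP arrays, against 1454, 1684, 1117 and 1559 on the YS arrays, and its difference was -0.29 ± 0.24. The copies are closely related in sequence, so signal shared between their probe sets was possible and was not tested. EIF1AY lay above the no-target level on all 8 arrays. RefSeq's annotation also places it on the pig Y chromosome. Of other genes placed there, SRY lay above that level on 2 arrays, LOC396706 on 2 and 3 by probe set, and LOC100624648 and CD99 on 8. Whether the EIF1AY signal came from a Y-linked copy was not tested.

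The 2 measured subunits of eIF2, the GTPase that brings initiator tRNA to the ribosome, both had higher means in KNP. The alpha subunit EIF2S1, whose phosphorylation halts initiation, gave 3019.8, 3488, 3539 and 2559.8 on the KNP arrays, against 3140.4, 2617, 2508 and 2079 on the YS arrays. The highest 2 values were in KNP and the lowest in YS, but the breeds overlapped, and the difference was 0.29 ± 0.24 (SE). The beta subunit EIF2S2 had a difference of 0.16 ± 0.24. EIF2D, which can place tRNA on the start codon without eIF2, had log2 means of 8.74 ± 0.25 in KNP against 8.97 ± 0.22 in YS (SD, n = 4), a difference of -0.23 ± 0.25 (SE). EIF2A, another alternative initiator-tRNA binding factor, differed by -0.19 and EIF5B, the GTPase that joins the large ribosomal subunit, by 0.25. The value for EIF5B was 0.042 without KNP replicate 2 and 0.50 without KNP replicate 1. EIF1, which guards against wrong start codons, gave 12389, 17423, 26414 and 17138 on the KNP arrays, against 19005, 16284, 16856 and 13756 on the YS arrays, with its lowest value on KNP replicate 1 and its highest on KNP replicate 3.

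The second class holds the guanine nucleotide exchange factor eIF2B, which reloads eIF2 with GTP, and the eIF2 kinases, which block that step. It had 5 measured genes, 3 with a higher and 2 with a lower mean in KNP, and a median difference of 0.06. The kinase EIF2AK2, known as PKR, is activated by double-stranded RNA and induced by interferon, and was the factor with the largest difference in either direction. It gave signals of 214.4, 304.8, 261.8 and 626.8 on KNP replicates 1 to 4, against 829.5, 701.6, 667.1 and 201.2 on YS replicates 1 to 4. YS replicates 1, 2 and 3 lay above every KNP array, while YS replicate 4 was the lowest of all 8. The no-target level was also highest on YS replicate 4, at 160.8 against 40.6 to 115.4 on the other arrays. The log2 mean was 8.40 ± 0.65 in KNP against 9.10 ± 0.90 in YS (SD, n = 4), a difference of -0.69 ± 0.49 (SE) with a 95% interval from -1.80 to 0.42.

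The difference of EIF2AK2 stayed negative without any 1 array, from -1.14 without YS replicate 4 to -0.48 without YS replicate 1. On the 5 arrays left after removing KNP replicates 1 and 2 and YS replicate 4 it was -0.82 ± 0.40 (SE), with an adjusted p of 0.638 in limma. Of 6 measured markers of T and NK cells 1 had a higher mean in KNP, and their summed signal was 828.1 to 1893 on the KNP arrays and 1257 to 2322 on the YS arrays. On YS replicate 4, the array of lowest EIF2AK2 signal, that sum was 2040. Of 5 measured macrophage and myeloid markers 4 had a higher mean in KNP. The part of these cells in the value was not tested. The other eIF2 kinases are not analysed here.

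Among the eIF2B subunits the regulatory delta subunit EIF2B4 gave 687.2, 1415, 1064 and 1001 on the KNP arrays, against 820.2, 655.1, 859.0 and 846.2 on the YS arrays. KNP replicates 2, 3 and 4 exceeded all YS arrays and KNP replicate 1 did not, and the difference was 0.35 ± 0.28 (SE). It was 0.19 without KNP replicate 2, an array with both high muscle marker signal and a large 3' minus 5' difference. The gamma subunit EIF2B3, part of the catalytic pair, differed by 0.16 ± 0.23, the alpha subunit EIF2B1 by -0.13 ± 0.25 and the beta subunit EIF2B2 by 0.06 ± 0.23. EIF2B2 had the smallest spread of all 42 factors, with its highest signal 1.39 times its lowest over the 8 arrays.

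The 9 measured subunits of eIF3, the largest initiation complex and the platform on which the others assemble, had the narrowest range of differences among the classes with more than 2 members. Their median was -0.0013, with 4 means higher and 5 lower in KNP, and all differences fell between -0.12 for EIF3D and 0.21 for EIF3A. EIF3A, which encodes the largest subunit, gave 5298, 3449, 5482 and 4866 on KNP replicates 1 to 4, against 3549, 3995, 4292 and 4427 on YS replicates 1 to 4. KNP replicates 1, 3 and 4 lay above all YS arrays, and KNP replicate 2 was the lowest of the 8. Its difference was 0.21 ± 0.25 (SE), and 0.36 without KNP replicate 2.

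EIF3H gave 10169.6, 14787, 15999 and 10980.4 on the KNP arrays, against 12752, 11095, 11337 and 11691 on the YS arrays. KNP replicates 2 and 3 were above every YS array and KNP replicates 1 and 4 below. EIF3H differed by 0.12 ± 0.24 (SE), EIF3I by 0.12 ± 0.30 and EIF3L by -0.10 ± 0.29. EIF3D, the subunit that can itself bind the cap of selected mRNAs, varied most within this class. Its signal ran from 780.1 to 2932 on the KNP arrays and from 1164 to 2309 on the YS arrays, with KNP replicate 1 and YS replicate 4 the lowest of their breeds. EIF3K and EIF3B had differences of -0.0053 ± 0.29 and -0.0013 ± 0.31, so their intervals still reached -0.67 and -0.71 below and 0.66 and 0.71 above 0.

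The eIF4 class comprises the proteins at the mRNA cap: the cap-binding eIF4E, the scaffold eIF4G, the RNA helicase eIF4A with its helpers eIF4B and eIF4H, and the eIF4E-binding inhibitors. Of 11 genes 5 had a higher and 6 a lower mean in KNP, with a median difference of -0.01. The helicase EIF4A1 gave 1624, 2471, 1559 and 1309 on KNP replicates 1 to 4, against 1441, 966.1, 1673 and 1149 on YS replicates 1 to 4. The highest value was on KNP replicate 2 and the breeds overlapped, with log2 means of 10.74 ± 0.39 in KNP against 10.34 ± 0.35 in YS (SD, n = 4). The difference was 0.40 ± 0.29 (SE), 0.22 without KNP replicate 2 and 0.11 on the 5 arrays with the smallest 3' to 5' differences.

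Its paralog EIF4A2 had a difference of -0.12 ± 0.34 and a wide spread within KNP. Its signals were 7357, 8268, 19304 and 13639 on the KNP arrays, against 12847, 10609, 12809 and 12678 on the YS arrays. KNP replicates 1 and 2 were below every YS array and KNP replicates 3 and 4 above. EIF4A3, a related helicase of the exon junction complex, differed by -0.04.

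Of the scaffolds, EIF4G3 gave 2287, 2488, 1558 and 1669 on the KNP arrays, against 1955, 1685, 1448 and 1159.8 on the YS arrays. KNP replicates 1 and 2 were the highest of the 8 arrays, and the difference of 0.35 ± 0.28 (SE) became -0.06 on the 5 arrays with the smallest 3' to 5' differences. EIF4G1 differed by 0.20 ± 0.36, and by -0.08 without YS replicate 4. EIF4G2, which lacks the eIF4E binding site and serves cap-independent initiation, gave 20908, 14594, 14080.0 and 13096 on the KNP arrays, against 19293, 16449, 15656 and 11754 on the YS arrays. Its highest array was KNP replicate 1 and its lowest YS replicate 4, and the difference was -0.01 ± 0.27.

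The cap-binding protein EIF4E gave 376.9, 183.6, 304.8 and 210.2 on the KNP arrays, against 238.8, 304.7, 165.6 and 239.5 on the YS arrays, a difference of 0.15 ± 0.31 (SE). Its homologue EIF4E2, which can repress translation, differed by 0.16 ± 0.33, and by -0.37 on the 5 arrays. The inhibitor EIF4EBP2 gave 2569, 3566, 1431 and 3528 on the KNP arrays, against 2189, 2842, 3990.2 and 2660.5 on the YS arrays. The lowest array was KNP replicate 3, and the difference was -0.13 ± 0.35. EIF4B, which stimulates the helicase, differed by -0.15 ± 0.32. Its YS arrays lay within 3624 to 3988 in signal, while its KNP arrays spread from 1985 on replicate 1 to 4964 on replicate 3.

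EIF5A and EIF6 pointed in opposite directions. EIF5A, whose product carries hypusine and relieves stalled ribosomes, gave 3772, 6303, 4788 and 4869.9 on KNP replicates 1 to 4, against 6532, 6178, 6415 and 4869.5 on YS replicates 1 to 4. Apart from KNP replicate 2 and YS replicate 4, the KNP arrays lay below the YS arrays. The log2 means were 12.25 ± 0.30 in KNP against 12.54 ± 0.20 in YS (SD, n = 4), a difference of -0.30 ± 0.25 (SE), which stayed between -0.42 and -0.17 when 1 array was left out. A second EIF5A probe set differed by -0.40 ± 0.40.

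EIF6, which keeps the ribosomal subunits apart until the large one is mature, gave 1309, 2059, 2496 and 1806 on the KNP arrays, against 1820.2, 1546, 1722 and 1032.5 on the YS arrays. The lowest KNP array was replicate 1 and the lowest YS array replicate 4, both among the 3 arrays with the largest 3' to 5' differences. The difference was 0.32 ± 0.30 (SE) on 8 arrays and 0.32 ± 0.26 on the 5 arrays left without them and KNP replicate 2. With 1 array left out it was 0.14 without YS replicate 4, 0.18 without KNP replicate 3 and 0.49 without KNP replicate 1.

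**Figure D3:**
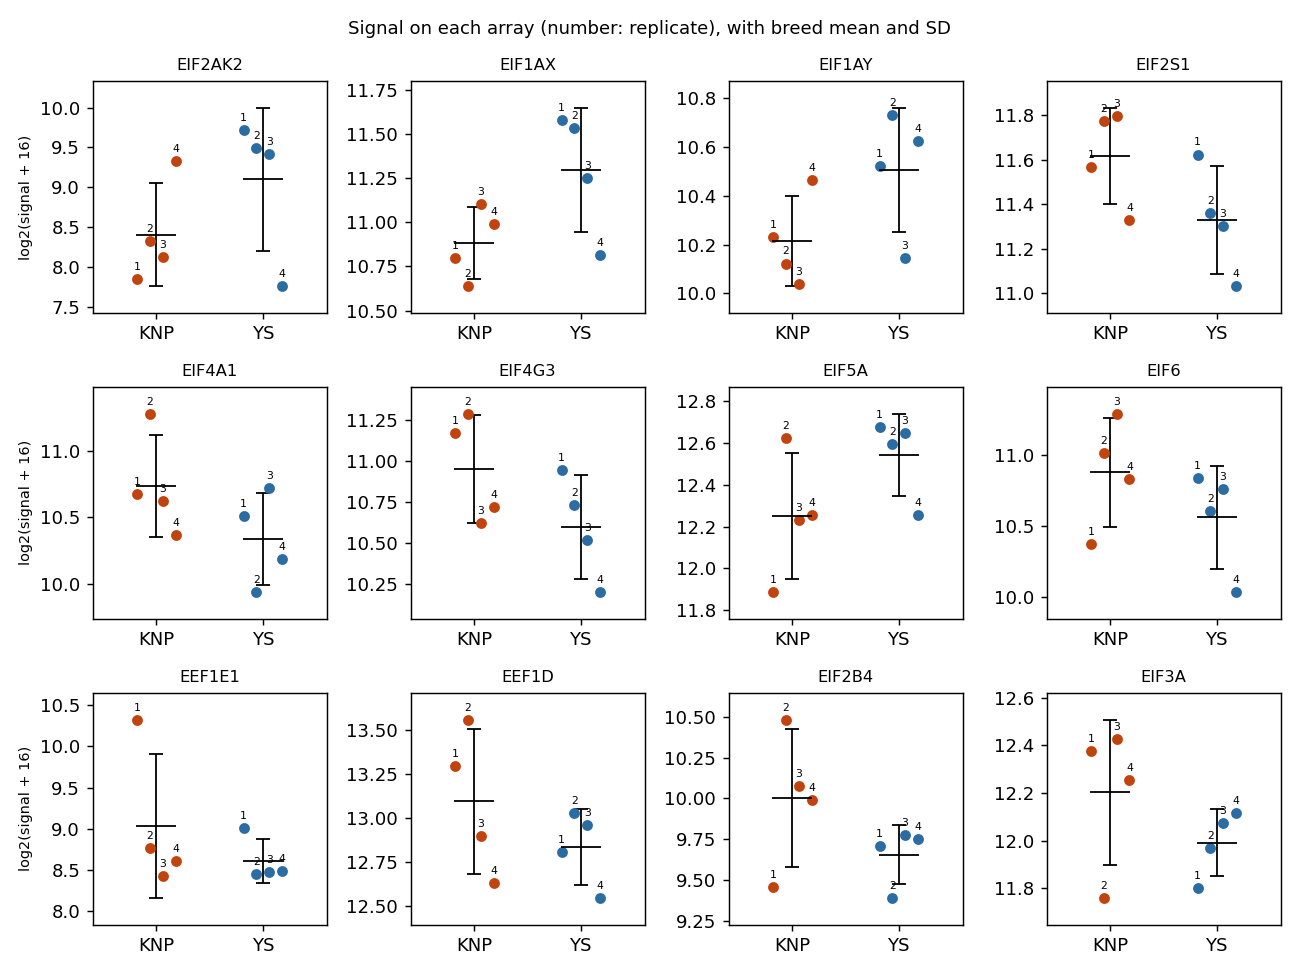
Signal on each array as log2(signal + 16) for 12 factors, with KNP left and YS right, replicate numbers at the points, and bars for the breed mean and SD. In EIF2AK2 and EIF1AX 3 YS arrays lie above all KNP arrays and YS replicate 4 lies low, and in EEF1E1 KNP replicate 1 lies far above the other 7.

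Of the 6 elongation genes 4 had a higher and 2 a lower mean in KNP, with a median difference of 0.15. The subunits of the eEF1B complex, which reloads eEF1A with GTP, are EEF1B2, EEF1D and EEF1G. EEF1D gave 10033, 12052, 7602 and 6323 on KNP replicates 1 to 4, against 7155, 8335, 7952 and 5959 on YS replicates 1 to 4. KNP replicates 1 and 2 were the highest 2 arrays, and the difference of 0.26 ± 0.28 (SE) was -0.17 ± 0.24 on the 5 arrays with the smallest 3' to 5' differences.

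EEF1B2 gave 25570.1, 34631, 35566 and 29536 on the KNP arrays, against 30628, 26676, 31425 and 24254 on the YS arrays. KNP replicates 2 and 3 were the highest 2 arrays and YS replicate 4 the lowest, and the difference was 0.14 ± 0.23 (SE) on 8 arrays and 0.14 ± 0.25 on 5. It was 0.074 without YS replicate 4, 0.24 without KNP replicate 1 and 0.018 with quantile normalization. EEF1G gave 9713, 16148, 12803 and 12084 on the KNP arrays, against 14839, 12146, 16440.0 and 8677 on the YS arrays, with the extremes at both ends in YS and a difference of -0.02 ± 0.29.

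EEF1E1, a partner of the complex of tRNA ligases, had the largest positive difference, 0.43 ± 0.42 (SE). Its signals were 1268, 419.0, 328.4 and 372.9 on the KNP arrays, against 498.1, 331.8, 339.1 and 343.1 on the YS arrays. This value rested on KNP replicate 1, and without that array the difference was -0.0035. EEF1AKMT1, a lysine methyltransferase that modifies eEF1A, differed by 0.16 ± 0.26, and by -0.03 on the 5 arrays.

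Among probe sets that are not controls, EEF1A1 was represented by one whose type can match several related transcripts. The middle control probe set had a far higher signal, 28839 to 63784 over the arrays, but was left out with the other controls. The probe set used instead gave 1549, 1350.5, 626.6 and 859.1 on the KNP arrays, against 1615, 930.9, 1067 and 914.9 on the YS arrays, a difference of -0.09 ± 0.35 (SE). Its value entered the class median of the elongation genes. On the 5 arrays the difference was -0.66 ± 0.33, with an adjusted p of 0.647 in limma. The other 2 probe sets of EEF1A1 that are not controls differed by -0.21 ± 0.60 and 0.19 ± 0.28, so the signs were mixed.

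The class median of the elongation genes thus depended on the arrays: 0.15 on all 8, 0.07 without KNP replicate 2 and -0.15 on the 5 arrays left after the 3 with the largest 3' minus 5' differences were removed, a choice made after seeing the data. Across all factors, 16 of 42 changed sign between 8 and 5 arrays, 23 were then higher in KNP, and 0 had an unadjusted p under 0.05, against 8.09% of all genes. The median difference on the 5 arrays, 2 KNP and 3 YS, was 0.08, and that of all genes was -0.01. With the 3' minus 5' difference as a covariate 31 of 42 (73.8%) were higher in KNP, with a median of 0.10, against 50.4% of all genes. In that fit too 0 of 42 had an unadjusted p under 0.05, against 4.03% of all genes.

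Within each breed the factors stood at different levels from array to array. On each array, the median over the 42 factors of a factor's log2 signal minus its own mean was -0.25, 0.07, 0.19 and 0.0053 on KNP replicates 1 to 4 and 0.14, 0.02, -0.0013 and -0.29 on YS replicates 1 to 4. KNP replicate 1 and YS replicate 4 were the low arrays in this measure and KNP replicate 3 the highest. The same median over all 6006 genes stayed between -0.02 and 0.09. KNP replicate 3 held the highest value of 15 factors, 35.7% of them, against 12.6% of all genes. YS replicate 4 held the lowest value of 13 factors, 31.0% against 20.5% of all genes, and KNP replicate 1 that of 11, 26.2% against 16.3%.

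Among the eIF3 subunits 9 of 9 lay above their own mean on KNP replicate 3, 1 of 9 on KNP replicate 1 and 2 of 9 on YS replicate 4. Their pairwise Pearson correlation over the 8 arrays had a median of 0.365, against 0.128 over all pairs of the 42 factors and 0.00087 over all pairs of genes. The median was lower in other classes, at 0.112 for start codon selection and the ternary complex and 0.0937 for the eIF4 class. For eIF2B and the eIF2 kinases it was -0.237. All of these pairs share the same 8 arrays and their 3' to 5' differences. The elongation genes, with a median of 0.375, followed another order, with class medians of 0.16 and 0.35 on KNP replicates 1 and 2 and -0.21 on KNP replicate 3. The closest pairs were EIF4A3 with EIF3D and EIF4G1 with EIF3I, both at 0.968, and the most opposed was EIF4B with EEF1E1 at -0.89.

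**Figure D4:**
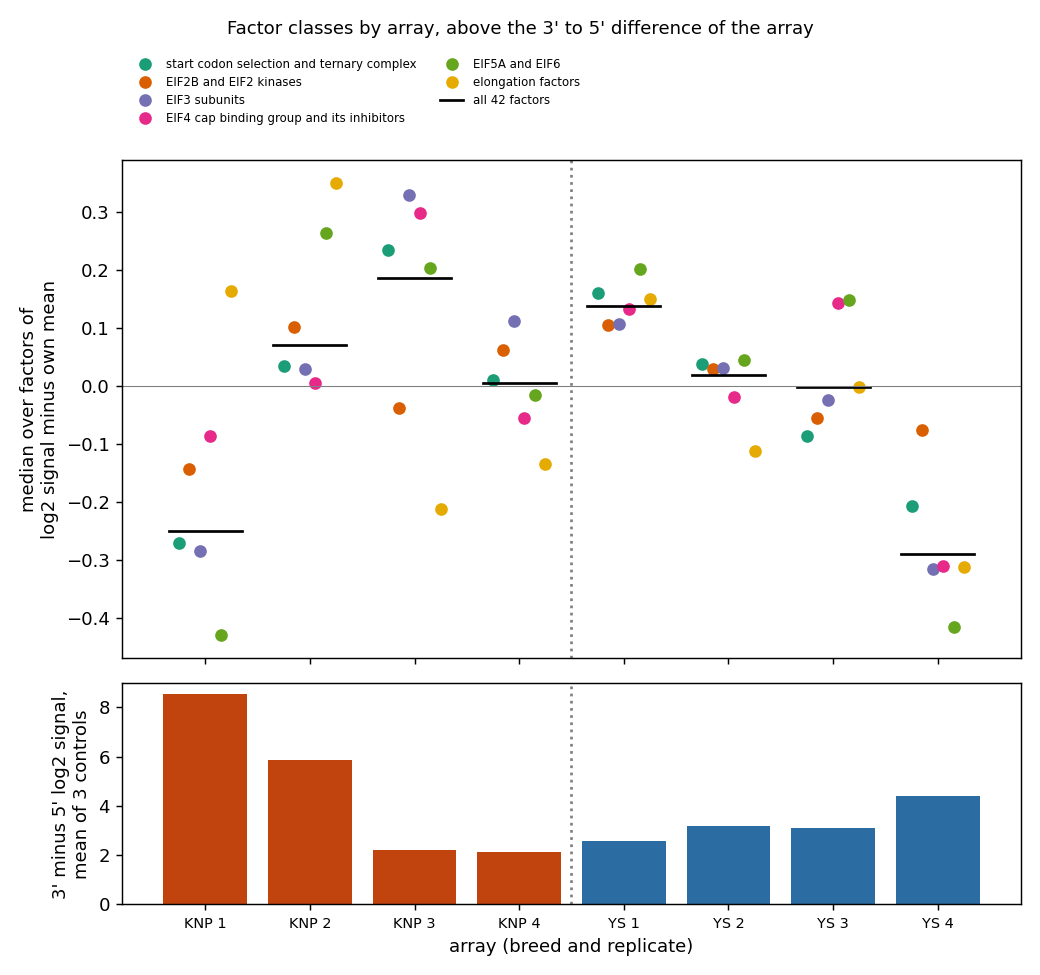
Upper panel: for each array, the median over a factor class of log2 signal minus the factor's own mean, with a black line for all 42 factors. Lower panel: 3' minus 5' log2 signal of the array, averaged over 3 controls. The line is lowest on KNP 1 (-0.25) and YS 4 (-0.29) and highest on KNP 3 (0.19), and the elongation genes lie above it on KNP 1 and KNP 2 and below it on KNP 3.

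For 16 factors there was more than 1 tested probe set, which allowed a second look at the same transcript. In 7 of these all probe sets gave one sign, and in 9 the signs were mixed. The factors with one sign were EIF1, EIF5B and EEF1AKMT1, higher in KNP, and EIF1AX, EIF3D, EIF5A and EIF4EBP2, lower in KNP. All 5 probe sets of EIF4EBP2 had lower KNP means, from -0.13 to -1.01, though the last lay above the no-target level on only 3 of 8 arrays. So did the EIF4G1 probe set of opposite sign, at -0.77, on only 4 of 8, and 1 of the 3 EIF5B probe sets, on only 3 of 8.

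A second EIF4H probe set, chosen for mention after its values were seen, was the only one of 64 with an unadjusted p under 0.05 (0.0372, adjusted p = 0.9998 in limma), where 2.84% of all probe sets tested had one. It gave 507.7, 612.4, 953.6 and 1131 on the KNP arrays, against 408.1, 368.9, 466.7 and 551.2 on the YS arrays, a difference of 0.76 ± 0.31 (SE). KNP replicate 1 lay within the YS range and the other KNP arrays above it. The EIF4H probe set of highest mean gave 3138, 3243, 4674 and 3394 on the KNP arrays, against 4351, 4001, 4234 and 2985 on the YS arrays, and its difference of -0.11 ± 0.25 had the opposite sign.

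**Figure D5:**
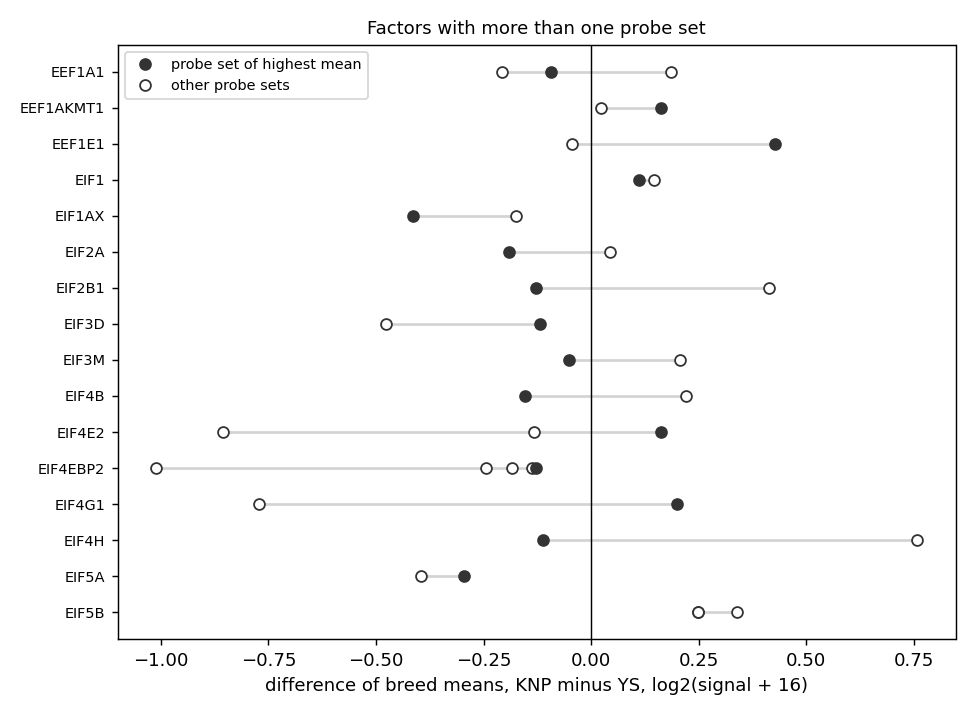
Difference between breed means, KNP minus YS on the log2(signal + 16) scale, for every probe set of the 16 factors that have more than 1, without control probe sets. Filled points are the probe sets of highest mean and open points the others. The points of 9 factors lie on both sides of 0, among them EIF4H (-0.11 and 0.76) and EIF4G1 (0.20 and -0.77).

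Other genes linked to translation, outside the factors themselves, were likewise not separated, and 0 passed the test in either direction. Of the mTORC1, S6 kinase and MNK group, which governs eIF4E availability, 5 of 12 measured genes had a higher KNP mean (median difference -0.02). The 17 measured cytosolic tRNA ligase genes had 10 higher (median 0.04), the 4 poly(A) binding proteins and partners 2 (median -0.05), and the 4 enzymes of hypusine and diphthamide, modifications of eIF5A and eEF2, had 4 (median 0.27). In the group of eIF2 phosphatases and stress targets 4 of 8 were higher (median 0.02). In limma 1 of these 8 had an unadjusted p under 0.05, the stress-induced transcription factor ATF3. In the other groups 0 of the 12, 17, 4 and 4 measured genes had one, where the share over all genes was 2.35%. ATF3 was thus 1 gene among all those measured in the 5 groups. It had a difference of 0.83 ± 0.36 (SE) and an adjusted p of 0.9998. The first by p in the other groups were PABPC4 at 0.33 ± 0.23, LAMTOR4 at 0.20 ± 0.25, DPH3 at 0.39 ± 0.29 and the seryl-tRNA ligase SARS at -0.49 ± 0.41.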

How the data were processed

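Per the labels, backfat RNA of 4 KNP and 4 YS samples was hybridised to 1-colour arrays. The deposited values were 1 linear intensity per probe set and array, already scaled by the authors: as read from the values, every array had a trimmed mean of 500.1 with 2% cut at either end. The sources used here do not name the summarisation algorithm. Array medians ran from 158.2 to 263.0 in signal. Arrays carry no counts, and their number limits the precision.

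Of 24123 probe sets, 124 controls and the 25% of the rest with the lowest mean were left out, and the remaining 17999 were taken as log2(signal + 16). KNP was set against YS in limma 3.58.1 (R 4.3.3; lmFit and eBayes without covariates; two-sided p adjusted by Benjamini-Hochberg over all 17999), a procedure tested on simulated data. A gene was represented by its non-control probe set of highest mean. Symbols came from the platform annotation, which can be old, and 41 of 42 factors had the same symbol in RefSeq's Sscrofa11.1. Probe sets naming several genes (6 with a factor symbol) were left out. The no-target level of an array was the 95th percentile of 23 such controls, 40.6 to 160.8 in signal.

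Differences with a test were given for the 4 members of smallest p in each of 6 classes, and values for the members of highest mean, the eIF4E-binding protein and the eIF2 kinase. Further members were described where they fill out a complex. The members, classes and lists were chosen with earlier results of these data known. Alternatives were the filter, normalization, pseudocount, variance model, array weights, a replicate block, the 3' minus 5' covariate, averaging a gene's probe sets, the threshold, and each array left out. Removing the 3 arrays of largest 3' minus 5' difference and keeping control probe sets in were chosen after seeing the data.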

Additional observations from a re-analysis of the deposited data

Results flagged for a closer look

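Each factor and each class median was checked in each breed for 1 array lying far from the other 3. The measure was its gap to the nearest value as a share of the range, on the log2 scale and not on the signals printed here. This check marked 7 of 96 groups (7.29%), where about 5% are marked by chance. On YS replicate 4 these were EIF2AK2 at a signal of 201.2 (667.1 to 829.5 on the other YS arrays), EIF3L at 1991 (2709 to 2856) and EIF4E2 at 362.7 (657.4 to 741.5). On YS replicate 2 they were EIF2B4 at 655.1 (820.2 to 859.0) and EIF4A2 at 10609 (12678 to 12847). On YS replicate 1 EEF1E1 stood at 498.1 (331.8 to 343.1), and on KNP replicate 1 EIF2B2 stood at 1045.4 (1207 to 1241).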

How the results depend on the processing

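In each of 22 alternatives, a threshold of 0.10 among them, 0 of 42 factors passed. Of the other genes linked to translation, 0 passed an adjusted p of 0.05. The smallest adjusted p of a factor was 0.638, on 5 arrays, and the smallest of any probe set was 0.0596, with the trended robust variance model. At an unadjusted p under 0.05 there were 2 factors without YS replicate 4 (EIF2AK2 and EIF1AX), where 3.96% of all genes had such a p, and 0 under the other alternatives. The count of factors with a higher KNP mean ran from 18 without YS replicate 4 to 28 without KNP replicate 1, and to 31 with the 3' minus 5' covariate. The elongation class median was -0.15 on the 5 arrays and 0.15 on all 8. Of 462 values of the 22 factors given with a test, 443 kept their sign. On the 5 arrays the sign turned for EIF2B3 (-0.022), EIF3L (0.089), EIF4G3 (-0.061), EIF4E2 (-0.37), EEF1E1 (-0.12), EEF1D (-0.17) and EEF1AKMT1 (-0.029). With all probe sets of a gene averaged it turned for EIF2B1 (0.14), EIF4G1 (-0.29) and EIF4E2 (-0.28). It also turned for EIF4E2 with array weights (-0.16) and for EIF3L with the covariate (0.10). With 1 array left out it turned for EIF3L (-0.22 to 0.10), EIF4E2 (-0.067 to 0.31), EEF1E1 (-0.0035 to 0.63), EIF3I (-0.062 to 0.26) and EIF4G1 (-0.081 to 0.38). The cause was not tested. With the replicate block the difference of EIF2AK2 was again -0.69 and 0 factors passed. The labels do not say whether the numbers pair the arrays. The correlations of deviations for replicates 1 to 4 were -0.175, 0.022, 0.125 and -0.188, and no array correlated best with its own number. Such low values cannot exclude a pairing. The spread of 4 arrays per breed, with a median SE of 0.28, limits what could be seen: intervals of single factors reach well beyond their differences.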
